A study of Homo sapiens with 18 samples.

Results

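Described here are 32 human genes of the network that builds cholesterol and fatty acids from acetyl-CoA: enzymes of the mevalonate steps, of the squalene and sterol steps and of fatty acid synthesis, elongation and desaturation, together with the transcription factors SREBF1 and SREBF2 that switch many of these enzymes on, and 2 SREBP target genes of sterol handling, INSIG1 and STARD4. They were taken as a fixed list of gene symbols, matched by Ensembl identifier to the deposited gene counts. The selection rule itself uses no expression value, but the list was drawn up with earlier results of these data known. All 32 were found, among 60617 genes in the short-read files and 58676 in the long-read files.

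SREBP proteins, the products of SREBF1 and SREBF2, are made as membrane proteins of the endoplasmic reticulum. When membrane sterol is low they are carried to the Golgi and cut, and the released part enters the nucleus and binds promoters of the pathway. When sterol is high, INSIG1 holds the precursors back. SREBF2 is best known for sterol enzymes and SREBF1 for fatty acid enzymes. Lung epithelium of the alveoli uses the same enzymes to make the lipids of surfactant.

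The libraries came from H1975 (NCI-H1975 in the labels) and HCC827, a pair of established human lung adenocarcinoma cell lines that both carry activating EGFR mutations. Neither was treated, and both were grown in RPMI 1640 medium with fetal calf serum to near confluence and frozen before RNA extraction. Each line gave 3 independent RNA samples, and these 6 samples, as labelled, were sequenced on 3 platforms, which makes 18 libraries: Illumina short reads from a directional kit, Oxford Nanopore (ONT) cDNA reads, and PacBio Iso-Seq reads from size-selected molecules. Each line stands for 1 tumor, so a difference below is a difference between these lines and not between kinds of tumor. The p-values measure the spread between the 3 RNA samples of a line. The serum in the medium brings sterol and fatty acids, and their uptake was not measured.

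Gene totals lay between 10020699 and 40200473 counts in Illumina libraries, 81467393 and 116497461 in ONT libraries, and 37795 and 54339 in PacBio libraries. HCC827 replicate 2 had the lowest Illumina total and the highest share of spike-in RNA on each platform. The header of Illumina HCC827 replicate 3 names a repeat, and whether its RNA is that of replicate 3 on the other platforms was not tested beyond this: over genes, its deviations from the line mean went with those of ONT HCC827 replicate 3 (r 0.38) and not with ONT replicates 1 and 2 (r -0.21 and -0.19). Deviations within a line sum to 0, so these signs are linked. Between Illumina and ONT, same-numbered replicates 1 to 3 had r 0.47, 0.22 and 0.38 in HCC827 and 0.17, 0.009 and 0.15 in H1975. Between Illumina and PacBio they had r 0.33, 0.13 and 0.40 in HCC827 and 0.04, -0.008 and 0.02 in H1975. On PacBio, replicates 2 and 3 of H1975 lay closer together than counting noise allows for separate libraries, and so did replicates 1 and 2 of HCC827 (mean chi-square per gene 0.539 and 0.671, against 1.3 to 4.56 for the other PacBio pairs), so PacBio counts are given per library or summed over a line, without an SD. The header of PacBio HCC827 replicate 3 alone names poly(A), and that library stood apart from its line: HCC827 replicates 1 and 2 differed from it by a mean chi-square of 4.09 and 4.56. Its deviations ran with those of PacBio H1975 replicate 1 (r 0.60 over genes), and those of PacBio H1975 replicate 3 with HCC827 replicates 1 and 2 (r 0.46 and 0.47), so the PacBio libraries share structure across the lines that no label names, and its part in the PacBio results was not tested. Epithelial markers were present in every library, and all 8 were higher in HCC827 on Illumina, where their summed level was 3814 to 4090 CPM (counts scaled to library size) in H1975 and 11073 to 17489 CPM in HCC827. On ONT 7 of the 8 were called higher, and on PacBio 5 were tested and 0 called. Markers of hepatocytes and adipocytes, other lipid-making cells, reached at most 12 Illumina counts in any library, and the leukocyte marker PTPRC at most 11. CD68, on the same leukocyte list, had 1072 to 4083. On Illumina and ONT, CD68 was called higher in HCC827 and CD79A, also on that list, lower.

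More of these genes were higher in HCC827 than lower with the main scaling, on both deep platforms. On Illumina, 19 of the 32 genes were higher in HCC827, 6 were lower and 7 did not pass the test. On ONT, 16 were higher, 7 lower and 9 did not pass. The test was edgeR's quasi-likelihood test on the counts with TMM scaling (a scaling by the bulk of the genes), called at a Benjamini-Hochberg adjusted p below 0.05 over all genes tested. The lines differ widely: of all 25711 genes tested on Illumina 36.1% were called higher and 38% lower, and of 27366 on ONT 31.1% were called higher and 31.6% lower. The median log2 fold of the 32 was 0.52 on Illumina, against -0.04 for all genes tested, and 0.53 on ONT, against -0.02. In RNA from whole cultures, a lower share of cells that express a gene and less RNA per cell cannot be told apart.

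Both deep platforms called the same 22 genes in the same direction, and called none in opposite directions. The 16 that were higher in HCC827 on both are MVK, MVD, FDPS, FDFT1, LSS, TM7SF2, NSDHL, HSD17B7, DHCR7, SREBF1, SREBF2, INSIG1, ACLY, ACACA, FASN and FA2H. The 6 that were lower on both are IDI1, SQLE, CYP51A1, STARD4, FADS2 and ELOVL6. ACAT2, EBP and ACSS2 were called higher on Illumina only, and SC5D lower on ONT only. HMGCS1, PMVK, MSMO1, SCD, FADS1 and ELOVL5 passed on neither. By their labels the platforms sequenced the same RNA samples, so the second platform repeats the measurement and adds no new cultures. How many of all genes were called alike or in opposite directions by both platforms was not counted. The agreement therefore has no background share and is not shown to be particular to these genes.

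The scaling sets where 0 lies. With libraries scaled to their total counts, the median log2 fold of all genes moved to -0.38 on Illumina and -0.57 on ONT, and all genes called split into 6503 higher and 12773 lower on Illumina (9293 and 9768 with TMM) and into 4333 higher and 13787 lower on ONT (8503 and 8660 with TMM). Under that scaling 15 of the 32 genes were called higher and 11 lower on Illumina, and 12 higher and 13 lower on ONT. With TMM, with total counts, with a correction for GC content and without HCC827 replicate 2, 12 genes were called higher on both platforms each time: MVK, MVD, FDFT1, TM7SF2, NSDHL, DHCR7, SREBF1, INSIG1, ACLY, ACACA, FASN and FA2H. IDI1, SQLE, CYP51A1 and FADS2 were the 4 called lower on both in all of these. How many of all genes kept their call in this way was not counted, so these counts have no background share.

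**Figure D1:**
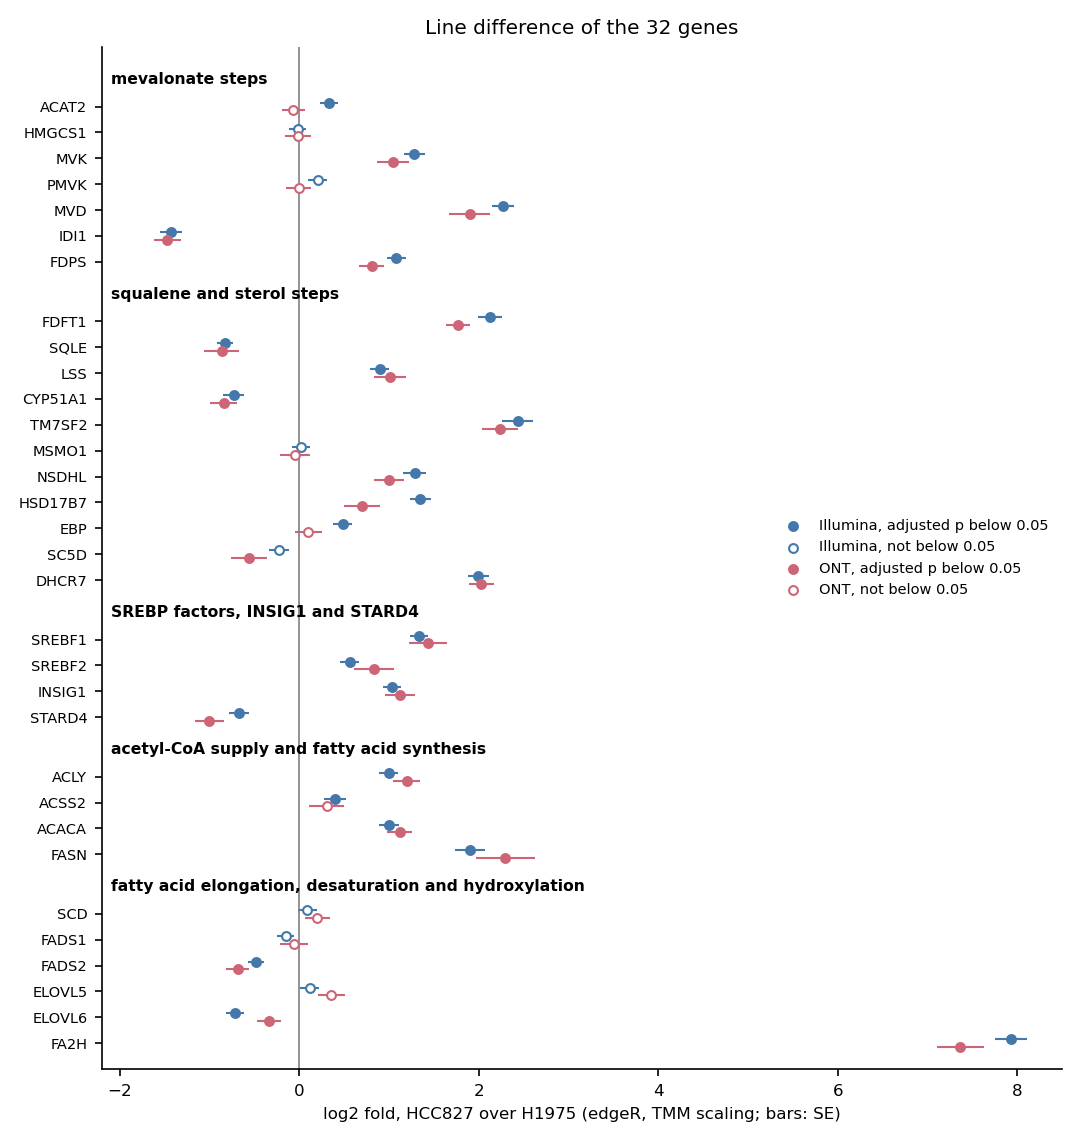
Log2 fold of HCC827 over H1975 for each of the 32 genes, grouped by step of the network, on Illumina (blue) and ONT (red). Points are edgeR estimates from 3 libraries a line, bars are standard errors, and filled points passed an adjusted p of 0.05. Most genes lie to the right of 0, IDI1, SQLE, CYP51A1, STARD4, FADS2 and ELOVL6 lie to the left on both platforms, and FA2H stands alone near 7.93 and 7.37.

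Promoters of 28 of the 32 genes were in the RefSeq table used here, which holds GRCh38 sequence. Of each gene, the 250 bases before the RefSeq start nearest to the annotated start were searched on both strands for 3 motifs: the sterol regulatory element TCACNCCAC, to which SREBP binds, the box CCAAT, which binds the cofactor NF-Y, and the E-box CACGTG, a common site of basic helix-loop-helix factors. The motifs do not share positions in the sequences shown. CCAAT occurred in 20 of the 28 promoters (71.4%), against 34.1% of 19094 promoters of all genes in the table. It was present in 11 of 14 genes that were higher in HCC827 on both platforms, in 2 of 5 that were lower on both and in 7 of 9 others. TCACNCCAC, which allows 1 free base, was found in SREBF2 alone, against 0.875% of all promoters, and CACGTG in SC5D, INSIG1 and ELOVL5, against 7.37%. A match is only a match of letters in this window, and no binding was measured.

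The sequences below are shown because they belong to the sole gene with the sterol element (SREBF2, chr22:41832855-41833104, plus strand), to a pair of CCAAT-bearing sterol genes higher in HCC827 (TM7SF2, chr11:65111622-65111871, plus strand, and HSD17B7, chr1:162790452-162790701, plus strand), to the gene with the largest difference (FA2H, chr16:74774821-74775070, minus strand) and to the mevalonate gene that went the other way (IDI1, chr10:1049120-1049369, minus strand). Each runs 5′ to 3′ on the strand of the gene and ends at the base before the RefSeq start. Capitals mark the motifs; ATTGG is CCAAT on the other strand.
SREBF2: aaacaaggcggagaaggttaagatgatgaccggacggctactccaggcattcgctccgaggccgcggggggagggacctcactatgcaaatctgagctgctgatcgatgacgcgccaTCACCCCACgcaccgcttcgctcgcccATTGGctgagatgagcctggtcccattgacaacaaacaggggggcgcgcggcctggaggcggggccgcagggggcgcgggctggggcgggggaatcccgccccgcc
TM7SF2: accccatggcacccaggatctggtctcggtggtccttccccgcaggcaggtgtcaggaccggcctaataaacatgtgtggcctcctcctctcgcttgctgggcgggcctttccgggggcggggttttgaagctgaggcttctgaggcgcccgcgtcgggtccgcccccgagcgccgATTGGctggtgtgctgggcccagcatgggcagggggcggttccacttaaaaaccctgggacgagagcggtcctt
HSD17B7: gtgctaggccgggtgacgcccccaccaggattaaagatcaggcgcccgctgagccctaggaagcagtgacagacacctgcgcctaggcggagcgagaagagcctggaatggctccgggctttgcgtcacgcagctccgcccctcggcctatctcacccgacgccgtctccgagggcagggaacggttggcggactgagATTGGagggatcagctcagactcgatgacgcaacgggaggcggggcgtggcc
FA2H: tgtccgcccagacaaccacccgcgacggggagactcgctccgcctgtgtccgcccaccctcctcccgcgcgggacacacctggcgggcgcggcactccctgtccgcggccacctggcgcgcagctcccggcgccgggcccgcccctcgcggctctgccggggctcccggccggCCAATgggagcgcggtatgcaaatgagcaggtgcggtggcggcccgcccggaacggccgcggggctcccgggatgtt
IDI1: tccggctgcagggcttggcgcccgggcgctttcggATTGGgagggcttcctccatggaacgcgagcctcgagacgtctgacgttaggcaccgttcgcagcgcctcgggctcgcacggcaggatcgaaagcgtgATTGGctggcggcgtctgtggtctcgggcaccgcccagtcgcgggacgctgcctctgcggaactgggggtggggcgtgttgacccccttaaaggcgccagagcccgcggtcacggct

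In SREBF2 the sterol element began 133 bases before the start and the CCAAT box 106. The CCAAT box began 74 bases before the start in TM7SF2, 52 in HSD17B7 and 77 in FA2H. IDI1 held a pair, at 215 and 117 bases, so the gene that was lower in HCC827 and the genes that were higher shared this motif.

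The mevalonate steps turn acetyl-CoA into the isoprene units from which sterols are built. Of 7 genes here, 4 were called higher in HCC827 and 1 lower on Illumina (median log2 fold 0.33), and 3 higher and 1 lower on ONT (median -0.01). HMGCS1 (HMG-CoA synthase, which joins acetyl-CoA to acetoacetyl-CoA, ENSG00000112972, chr5:43287470-43313512) did not pass on either platform. Its Illumina level was 46.7, 44.1 and 42.1 CPM in H1975 replicates 1 to 3 and 44.8, 39.8 and 46.1 CPM in HCC827 replicates 1 to 3. On ONT it was 5.11, 4.96 and 5.04 CPM in H1975 and 4.50, 5.23 and 5.18 CPM in HCC827. The lines overlapped on both, with log2 folds of -0.02 ± 0.09 (SE, n = 3 libraries a line) and -0.02 ± 0.14 (SE, n = 3). That call depends on the correction: HMGCS1 was called higher with a GC correction (log2 0.41 and 0.40) and lower with total count scaling (-0.37 and -0.57).

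MVD (mevalonate diphosphate decarboxylase, ENSG00000167508, chr16:88651935-88663161) makes isopentenyl diphosphate. Its Illumina level was 16.9, 16.5 and 16.6 CPM in H1975 and 65.1, 94.7 and 83.0 CPM in HCC827. On ONT it was 5.20, 5.29 and 4.64 CPM in H1975 and 12.7, 25.4 and 18.4 CPM in HCC827. Every HCC827 library was above every H1975 library, replicate 1 being the lowest and replicate 2 the highest of the HCC827 libraries on both platforms. The log2 fold was 2.27 ± 0.13 on Illumina (edgeR adjusted p = 1.1e-09) and 1.90 ± 0.23 on ONT (adjusted p = 3.9e-05).

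IDI1 (isopentenyl diphosphate isomerase, ENSG00000067064, chr10:1039152-1049119) acts directly after MVD and went the other way. Its Illumina level was 21.6, 19.8 and 19.8 CPM in H1975 and 8.06, 5.71 and 8.05 CPM in HCC827. On ONT it was 9.51, 9.99 and 8.95 CPM in H1975 and 3.43, 3.04 and 3.81 CPM in HCC827. Each HCC827 library lay below each H1975 library, and replicate 2 was again the extreme one. H1975 was 2.70-fold higher on Illumina (log2 -1.43 ± 0.12, edgeR adjusted p = 1.0e-07) and 2.77-fold higher on ONT (log2 -1.47 ± 0.15, adjusted p = 1.3e-05). IDI1 shares exon sequence with IDI2-AS1 on the opposite strand. The sources used here do not say whether counting used strand, so its reads and those of the antisense gene cannot be told apart. The same holds for ACAT2, HMGCS1, MVK, FDPS, FDFT1, LSS, CYP51A1, SREBF1, SREBF2, STARD4, ACLY, FADS1, FADS2 and ELOVL6, each of which overlaps an exon on the opposite strand.

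MVK (mevalonate kinase) was 2.43-fold higher in HCC827 on Illumina and 2.06-fold on ONT. FDPS, which joins isoprene units into farnesyl diphosphate, was 2.12-fold and 1.75-fold higher. It has near-identical pseudogene copies, so its counts are uncertain, and on ONT its call was lost with total count scaling (log2 0.24, adjusted p = 0.064). ACAT2, the cytosolic thiolase, had log2 0.33 ± 0.10 on Illumina and -0.07 ± 0.13 on ONT; the Illumina call was lost without H1975 replicate 2 (0.28, edgeR adjusted p = 0.060), and the value turned to -0.022 with total count scaling. PMVK (phosphomevalonate kinase) had 0.20 ± 0.10 and -0.01 ± 0.14 and passed on neither, although its 3 HCC827 libraries were all above H1975 on Illumina; without HCC827 replicate 1 it was called (0.28, edgeR adjusted p = 0.015).

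The squalene and sterol steps join farnesyl units into squalene, close the rings and trim the product to cholesterol. Of 11 genes, 7 were called higher in HCC827 and 2 lower on Illumina (median log2 fold 0.90), and 6 higher and 3 lower on ONT (median 0.70). Neighbouring enzymes differed in direction: FDFT1, which makes squalene, was higher, SQLE, which oxidises it, was lower, LSS, which closes the rings, was higher, and CYP51A1, which removes the first methyl group, was lower.

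FDFT1 (squalene synthase, ENSG00000079459, chr8:11795573-11839395) had 55.0, 54.2 and 53.2 CPM in the H1975 Illumina libraries and 196, 292 and 224 CPM in the HCC827 ones. On ONT it had 37.1, 36.2 and 32.9 CPM in H1975 and 114, 113 and 136 CPM in HCC827. The groups were far apart, and the order of the HCC827 libraries differed between platforms. The log2 fold was 2.13 ± 0.13 on Illumina (edgeR adjusted p = 3.6e-09) and 1.77 ± 0.14 on ONT (adjusted p = 1.5e-06). PacBio gave 5, 5 and 4 counts in H1975 and 14, 7 and 13 counts in HCC827.

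SQLE (squalene epoxidase, a rate-controlling step of the sterol branch, ENSG00000104549, chr8:124998497-125022283) was lower in HCC827. Its Illumina level was 32.1, 32.4 and 32 CPM in H1975 and 18.4, 17.7 and 17.9 CPM in HCC827. On ONT it was 4.77, 6.53 and 4.84 CPM in H1975 and 2.39, 3.50 and 2.98 CPM in HCC827. The groups did not overlap on either platform, and the Illumina libraries of a line lay within 1 CPM of each other. H1975 was 1.78-fold higher on Illumina (log2 -0.83 ± 0.09, edgeR adjusted p = 1.1e-06) and 1.82-fold on ONT (log2 -0.86 ± 0.20, adjusted p = 0.0027).

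TM7SF2 (sterol C14 reductase, ENSG00000149809, chr11:65111845-65116384) had the second largest difference of the 32 on Illumina and the third largest on ONT, after FA2H and FASN. Illumina gave 7.97, 7.16 and 7.87 CPM in H1975 and 28.9, 46.9 and 49.3 CPM in HCC827. ONT gave 2.96, 3.80 and 3.40 CPM in H1975 and 12.0, 18.7 and 17.2 CPM in HCC827. HCC827 replicate 1 was the lowest of its line on both, yet more than 3 times every H1975 library. The log2 fold was 2.43 ± 0.17 (edgeR adjusted p = 1.3e-08) and 2.24 ± 0.20 (adjusted p = 4.0e-06). Part of its exon sequence overlaps VPS51 on the same strand, which leaves its counts uncertain.

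DHCR7 (7-dehydrocholesterol reductase, the last step to cholesterol on one branch, ENSG00000172893, chr11:71428193-71452868) showed nearly the same fold on both platforms. Illumina gave 45.1, 40.6 and 43.0 CPM in H1975 and 145, 194 and 175 CPM in HCC827. ONT gave 9.61, 9.60 and 9.67 CPM in H1975 and 36.9, 36.2 and 44.9 CPM in HCC827. The log2 fold was 2.00 ± 0.11 on Illumina (edgeR adjusted p = 1.6e-09) and 2.03 ± 0.14 on ONT (adjusted p = 9.3e-07), with no overlap between the lines. On PacBio it had 4 counts in each H1975 library and 11, 7 and 2 counts in HCC827, the lowest value being in the HCC827 library whose header names poly(A).

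NSDHL, a dehydrogenase of C4 demethylation (ENSG00000147383, chrX:152830967-152869729), was higher in HCC827. Illumina libraries held 28.6, 28.2 and 27.3 CPM in H1975 and 53.7, 74.7 and 77.3 CPM in HCC827. ONT libraries held 14.3, 15.5 and 12.8 CPM in H1975 and 24.7, 25.5 and 35.2 CPM in HCC827. This gave a log2 fold of 1.28 ± 0.13 (edgeR adjusted p = 4.3e-07) and 1.00 ± 0.17 (adjusted p = 4.2e-04), again with no overlap.

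HSD17B7, the ketoreductase of the same complex (ENSG00000132196, chr1:162790702-162812823), had 4.25, 4.13 and 3.93 CPM in H1975 and 10.9, 9.44 and 10.7 CPM in HCC827 on Illumina. On ONT it had 3.64, 3.85 and 3.88 CPM in H1975 and 6.58, 4.34 and 7.51 CPM in HCC827. HCC827 replicate 2 was the lowest of its line on both platforms and lay closest to H1975 on ONT. The estimated log2 fold was 1.35 ± 0.12 on Illumina (edgeR adjusted p = 1.1e-07) and 0.70 ± 0.20 on ONT (adjusted p = 0.011); on ONT it was 0.92 without HCC827 replicate 2 and no longer passed with total count scaling (0.12, adjusted p = 0.57). A near-identical pseudogene copy makes its counts uncertain.

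The other 5 sterol genes fell outside the rule for values in every library and are given by their folds. LSS (lanosterol synthase) was 1.86-fold higher in HCC827 on Illumina and 2.01-fold on ONT, and on ONT its call was lost with total count scaling (log2 0.46, adjusted p = 0.079). CYP51A1 (lanosterol demethylase) was 1.66-fold and 1.79-fold higher in H1975. It shares exon sequence with AKAP9 on the opposite strand and, like EBP, with unnamed genes on the same strand, so these counts are uncertain. EBP, the sterol isomerase, had log2 0.48 ± 0.10 on Illumina and 0.10 ± 0.15 on ONT, where it turned to -0.46 with total count scaling. MSMO1, the C4 methyl oxidase that acts with NSDHL and HSD17B7, had log2 0.02 ± 0.10 and -0.05 ± 0.17 with overlapping lines; on Illumina it was called lower with total count scaling (-0.33) and higher with the GC correction (0.44). SC5D, the C5 desaturase before DHCR7, had -0.23 ± 0.11 and -0.56 ± 0.20, of which the ONT value passed (adjusted p = 0.027); that call was lost without ONT H1975 replicate 2, H1975 replicate 3 or HCC827 replicate 1 (adjusted p 0.076 to 0.091), and the Illumina value was called lower without HCC827 replicate 3 (-0.36) and turned to 0.27 with the GC correction.

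**Figure D2:**
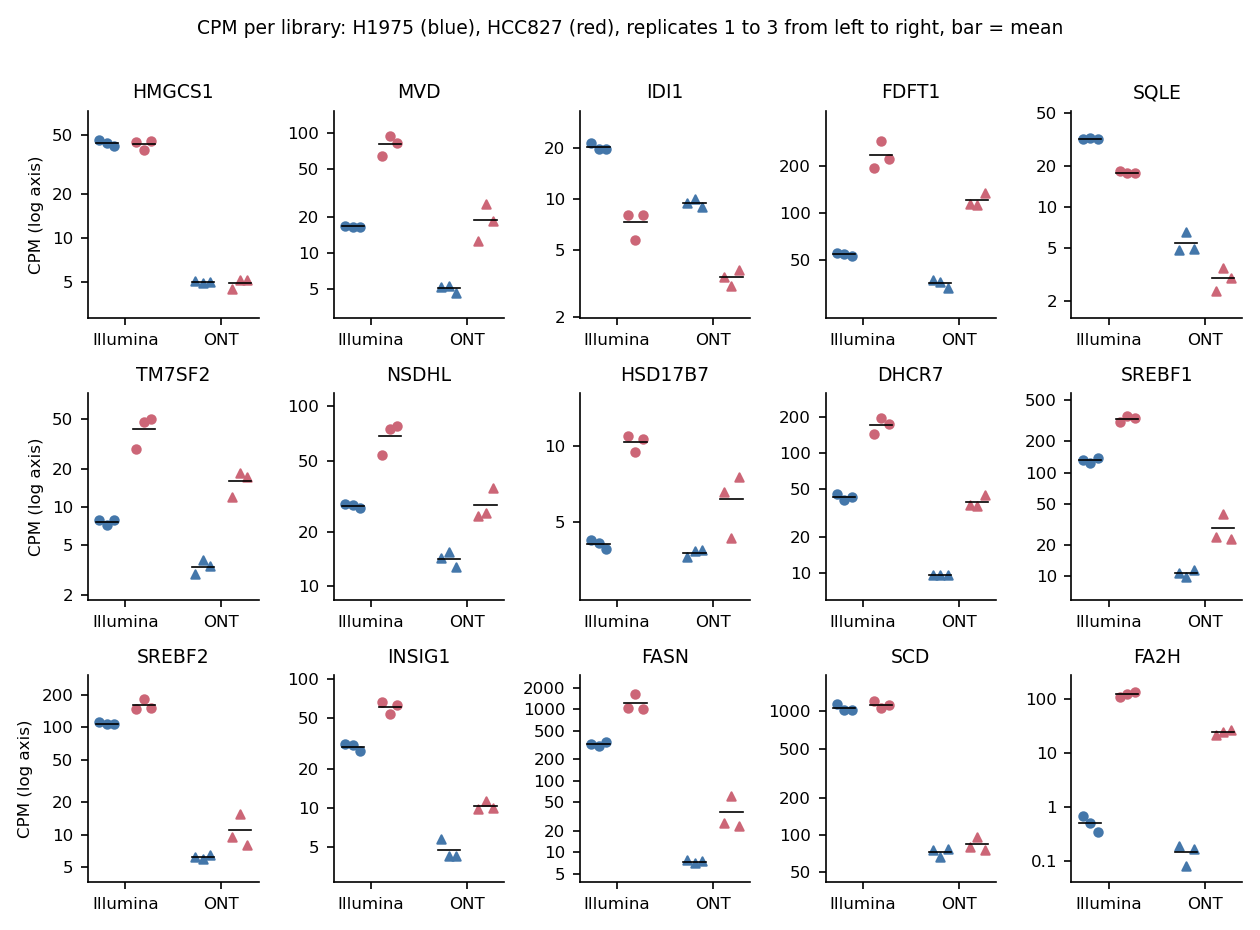
CPM in each Illumina library (circles) and ONT library (triangles) of 15 genes, on log axes that differ between panels; H1975 is blue, HCC827 red, and black bars are means of 3 libraries. MVD, FDFT1, TM7SF2, DHCR7, SREBF1, FASN and FA2H have every HCC827 library above H1975 on both platforms, IDI1 and SQLE have every one below, and HMGCS1 and SCD overlap.

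With the main scaling SREBF1, SREBF2 and INSIG1 were called higher in HCC827 and STARD4 lower, on both Illumina and ONT. SREBF1 (ENSG00000072310, chr17:17810399-17837002) had 134, 123 and 137 CPM in the H1975 Illumina libraries and 304, 349 and 339 CPM in the HCC827 ones. On ONT it had 10.9, 9.87 and 11.6 CPM in H1975 and 24.2, 40.0 and 22.9 CPM in HCC827. No library of one line entered the range of the other, and replicate 2 was the highest of HCC827 on both. The resulting log2 fold was 1.33 ± 0.10 on Illumina (edgeR adjusted p = 2.5e-08) and 1.43 ± 0.21 on ONT (adjusted p = 1.6e-04). PacBio gave 25, 27 and 20 counts in H1975 and 50, 30 and 36 in HCC827. SREBF1 shares exon sequence with RAI1 on the opposite strand, and gene counts do not separate its 1a and 1c transcripts.

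SREBF2 (ENSG00000198911, chr22:41833105-41907306) differed less. Illumina gave 111, 107 and 107 CPM in H1975 and 147, 184 and 150 CPM in HCC827. ONT gave 6.14, 5.96 and 6.49 CPM in H1975 and 9.54, 15.5 and 8.0 CPM in HCC827. All HCC827 libraries were higher, replicate 2 by the widest margin. The line difference on the log2 scale was 0.56 ± 0.10 (edgeR adjusted p = 2.0e-04) and 0.83 ± 0.22 (adjusted p = 0.0075), and it was 0.47 and 0.53 without HCC827 replicate 2. The call was lost with total count scaling (0.20 and 0.30) and with the GC correction (0.14 and 0.50). SREBF2 overlaps SREBF2-AS1 on the opposite strand.

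INSIG1 (ENSG00000186480, chr7:155297776-155310235), the sterol-sensitive retainer and itself an SREBP target, was about 2-fold higher in HCC827. Its level on Illumina was 31.5, 30.8 and 27.9 CPM in H1975 and 66.4, 53.6 and 63.2 CPM in HCC827. Its level on ONT was 5.81, 4.32 and 4.3 CPM in H1975 and 9.91, 11.4 and 10.1 CPM in HCC827. The lines did not overlap, and the log2 folds were 1.03 ± 0.10 (edgeR adjusted p = 5.1e-07) and 1.13 ± 0.17 (adjusted p = 1.6e-04). STARD4, a small sterol carrier protein, was 1.6-fold and 2.0-fold higher in H1975; the Illumina call was lost with the GC correction (log2 -0.18).

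Acetyl-CoA supply and fatty acid synthesis was the group in which no gene was lower. All 4 genes were called higher in HCC827 on Illumina (median log2 fold 1.00) and 3 on ONT (median 1.16). FASN (fatty acid synthase, which builds palmitate, ENSG00000169710, chr17:82078338-82098294) had 329, 303 and 344 CPM in the H1975 Illumina libraries and 1034, 1615 and 999 CPM in the HCC827 ones. On ONT it had 7.81, 7.0 and 7.49 CPM in H1975 and 25.4, 61.0 and 23.2 CPM in HCC827. On PacBio it had 26, 42 and 40 counts in H1975 and 99, 88 and 26 in HCC827. The lines did not overlap on Illumina and ONT, but on PacBio HCC827 replicate 3 was at the lowest H1975 count. In log2 units the difference was 1.90 ± 0.16 on Illumina (edgeR adjusted p = 9.8e-08) and 2.3 ± 0.32 on ONT (adjusted p = 1.2e-04).

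HCC827 replicate 2 sets part of that size. FASN was 1.59 times the mean of HCC827 replicates 1 and 3 there on Illumina and 2.51 times on ONT, the largest such ratio of the 32 genes on both. Without this RNA sample the log2 fold was 1.66 on Illumina and 1.74 on ONT, and both passed (adjusted p = 3.9e-07 and 4.7e-08).

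ACLY, which cuts citrate into cytosolic acetyl-CoA, was 1.99-fold higher in HCC827 on Illumina and 2.29-fold on ONT. ACACA, the carboxylase that makes malonyl-CoA, was higher by 1.00 ± 0.11 and 1.12 ± 0.14 on the log2 scale. ACSS2, which makes acetyl-CoA from acetate, had log2 0.40 ± 0.12 on Illumina (edgeR adjusted p = 0.0090) and 0.31 ± 0.20 on ONT (adjusted p = 0.19). Its Illumina call was lost with total count scaling (0.04) and with the GC correction (0.20).

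Elongation, desaturation and hydroxylation held the widest spread. Of 6 genes 1 was called higher and 2 lower in HCC827 on both platforms (median log2 fold -0.03 on Illumina and 0.07 on ONT). FA2H (fatty acid 2-hydroxylase, which makes the hydroxy fatty acids of sphingolipids, ENSG00000103089, chr16:74712955-74774831) was close to absent from H1975. Illumina gave 0.676, 0.5 and 0.345 CPM in H1975 and 110, 129 and 138 CPM in HCC827. ONT gave 0.189, 0.0811 and 0.169 CPM in H1975 and 22.1, 24.8 and 26.9 CPM in HCC827. PacBio gave no count in H1975 and 10, 6 and 5 counts in HCC827, at least 7.61-fold more when H1975 is set to a floor of 3 counts over its libraries. The log2 estimate was 7.93 ± 0.18 on Illumina (edgeR adjusted p = 4.6e-13) and 7.37 ± 0.26 on ONT (adjusted p = 9.1e-09), the largest of the 32 on both.

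SCD (stearoyl-CoA desaturase, which makes oleate, ENSG00000099194, chr10:100347233-100364826) did not pass. Illumina libraries held 1140, 1033 and 1027 CPM in H1975 and 1214, 1069 and 1122 CPM in HCC827. ONT libraries held 76.0, 66.8 and 76.9 CPM in H1975 and 80.4, 96.7 and 75.4 CPM in HCC827. On PacBio it had 44, 53 and 54 counts in H1975 and 61, 45 and 38 in HCC827, so the lines overlapped on every platform. This gave a log2 fold of 0.09 ± 0.10 on Illumina and 0.20 ± 0.14 on ONT; with total count scaling the Illumina value was -0.26 and was called lower.

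FADS2, the delta-6 desaturase, was 1.4-fold and 1.61-fold higher in H1975, while its neighbour FADS1, the delta-5 desaturase, had log2 -0.15 ± 0.09 and -0.06 ± 0.16 and was called lower only on Illumina without HCC827 replicate 1 (-0.20). These genes overlap each other on opposite strands, so their counts are uncertain without strand. FADS2 also shares exon sequence with FEN1, and FADS1 with MIR1908, on the same strand, which strand would not separate. ELOVL6, which elongates palmitate, was 1.64-fold higher in H1975 on Illumina and 1.26-fold on ONT (log2 -0.33 ± 0.13, edgeR adjusted p = 0.049). On ONT that call was lost without any single library other than HCC827 replicate 2 (adjusted p 0.061 to 0.18), and the value was 0.019 with the GC correction. ELOVL5, which elongates polyunsaturated fatty acids, had log2 0.12 ± 0.11 and 0.36 ± 0.15 and did not pass; it was called higher without HCC827 replicate 2 on both platforms (0.23 and 0.48) and with the GC correction (0.55 and 0.77).

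Levels of different genes were compared per length on Illumina, as TPM (reads per summed exon length, scaled to a fixed total), and only within a line, since TPM fixes each library's total. SCD was the most abundant of the 32 in both lines, at 482 ± 27 TPM in H1975 and 335 ± 45 TPM in HCC827 (SD, n = 3). FASN was second in both, at 82.6 ± 5.1 and 201 ± 53 TPM. In H1975 the places after FASN went to PMVK (77.2 ± 2.6 TPM) and ACLY (75.1 ± 2.5 TPM), which did not differ beyond their spread. In HCC827 they went to ACLY (97.8 ± 12 TPM) and FDFT1 (71.7 ± 13 TPM), followed by SREBF1 (61.9 ± 1.7 TPM) and FA2H (59.0 ± 2.8 TPM), again within their spread. FDFT1 ranked 15 of 32 in H1975 and 4 in HCC827, and FA2H ranked 32 and 6. With the longest transcript as the length, the ranks in H1975 were 2 for FADS2, 3 for FASN and 5 for PMVK, and SCD stayed first in both lines. At the low end of HCC827 stood IDI1 (2.6 ± 0.6 TPM), STARD4 (3.3 ± 0.4 TPM) and HSD17B7 (3.3 ± 0.4 TPM), which overlap within their spread.

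**Figure D3:**
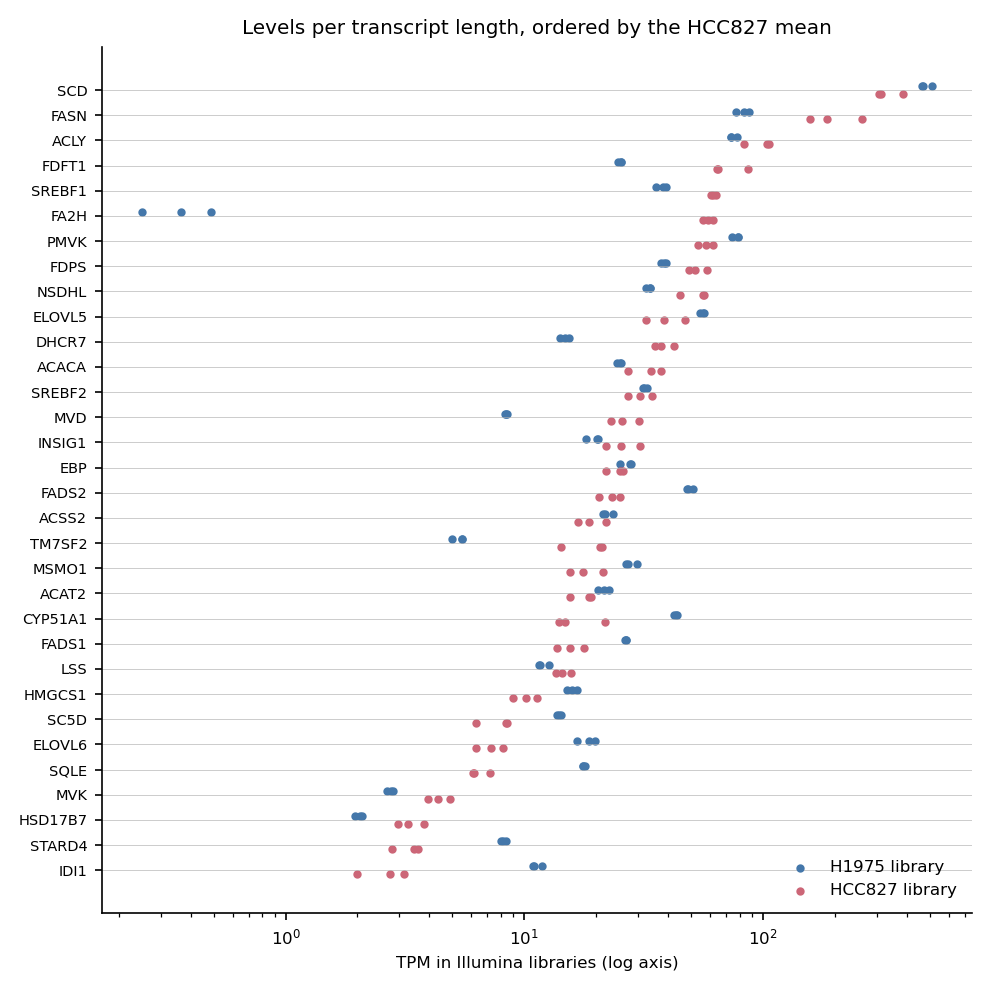
TPM of the 32 genes in each Illumina library on a log axis, ordered by the mean of the 3 HCC827 libraries, with H1975 in blue and HCC827 in red. SCD is highest in both lines, FA2H lies under 1 TPM in H1975 and near 59.0 in HCC827, and IDI1 is the lowest gene of HCC827. The order within a colour is the comparison; the distance between colours depends on the scaling.

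PacBio sequencing was too shallow to test most of the network. Only 6 genes passed the filter on low counts (SREBF1, SREBF2, ACLY, FASN, SCD and FADS2) and none was called, against 22.9% of 901 genes tested. At an unadjusted p below 0.05 there were 2, SREBF1 (log2 0.81 ± 0.27, edgeR adjusted p = 0.061) and FASN (1.08 ± 0.41, adjusted p = 0.084); DESeq2 called 1, FA2H (log2 5.26, adjusted p = 0.013), and limma-voom 0. Without HCC827 replicate 3, edgeR called SREBF1 (0.78, adjusted p = 0.029) and FASN (1.44, adjusted p = 3.8e-04). That fit left only the close pair of replicates 1 and 2 in HCC827, so its p-values rest on too small a spread. Summed PacBio counts were 108 in H1975 and 213 in HCC827 for FASN, a ratio of 2.14 per total count with a 95% interval for counting error of 1.69 to 2.73, and 151 and 144 for SCD, a ratio of 1.04 (0.819 to 1.31). On PacBio 13 genes of the network had every HCC827 library above every H1975 library, among them FDFT1, SREBF1, INSIG1 and FA2H, and 18 overlapped. SQLE was the 1 gene with every HCC827 library below H1975, at 3, 3 and 4 counts in H1975 against 2, 1 and 1 in HCC827. Counts this low are uncertain, and each line holds a close pair of libraries. How often all genes separate in this way was not tested.

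Whether the line difference itself depends on the platform was tested with an interaction term. Between ONT and Illumina none of the 32 genes passed, against 7.16% of 29395 genes tested; 2 had an unadjusted p below 0.05, DESeq2 called 0 and limma-voom 1. The smallest adjusted p was that of ELOVL6, whose ONT fold was higher by 0.55 ± 0.17 on the log2 scale (edgeR adjusted p = 0.059). With the RNA sample, as labelled, as a replicate block that pairs the platforms, ELOVL6 was called (0.55, adjusted p = 0.021). It was called too without ONT HCC827 replicate 2 (adjusted p = 0.029), and HSD17B7 without ONT HCC827 replicate 3 (adjusted p = 0.045). The next were ELOVL5, higher on ONT by 0.40 ± 0.19 (adjusted p = 0.24), ACLY by 0.36 ± 0.17 (adjusted p = 0.26) and HSD17B7, lower by 0.49 with an adjusted p of 0.27. Between PacBio and Illumina none passed either, against 0.0208% of 19189 genes; 3 had an unadjusted p below 0.05, DESeq2 called 0 and limma-voom 5. A gene that missed the threshold is not thereby shown to behave alike on both platforms.

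The direction of these genes ran with base composition. Over all genes, the median log2 fold of HCC827 over H1975 increased from -0.46 in the lowest of 10 equal bins of GC content of the canonical transcript to 0.48 in the highest bin on Illumina, and from -0.47 to 0.44 on ONT. Across the 32 genes GC content and log2 fold had Pearson's r 0.54 and Spearman's rho 0.67 on Illumina, and 0.56 and 0.67 on ONT. Without FA2H r was 0.66 and 0.68. The relation was weaker over all genes tested, with r 0.147 and rho 0.25 on Illumina and r 0.147 and rho 0.23 on ONT. The points share libraries, so these are descriptions across genes. The 16 genes higher on both platforms had a median GC content of 58.0% (44.8 to 65.5%), the 6 lower on both 41.2% (34.4 to 59.0%), and the other 10 46.0% (36.9 to 59.0%). FADS2, at 59.0%, is the GC-rich gene that was lower, and FDFT1 (46.5%), HSD17B7 (46.9%) and INSIG1 (44.8%) are GC-poorer genes that were higher.

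A GC correction, chosen after seeing the data, removed from each library the median deviation of its genes in 20 bins of GC content. With it, 21 of the 32 genes were called higher in HCC827 and 6 lower on Illumina, and 17 and 5 on ONT. Of all genes tested, 9424 of 25711 were then called higher and 9409 lower on Illumina, and 8446 of 27366 higher and 8096 lower on ONT. On Illumina HMGCS1 (0.41), MSMO1 (0.44), SC5D (0.27) and ELOVL5 (0.55) were then called higher and PMVK lower (-0.21), while SREBF2, ACSS2 and STARD4 were no longer called. On ONT HMGCS1 (0.40) and ELOVL5 (0.77) were then called higher, and SREBF2, SC5D and ELOVL6 were no longer called. Among genes with large differences, MVD was 1.75 on Illumina and 1.43 on ONT, SREBF1 0.85 and 1.03, FASN 1.38 and 1.80, FDFT1 2.20 and 1.80, and IDI1 -1.02 and -1.07. The part of the GC gradient in the uncorrected folds was not tested in another way.

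**Figure D4:**
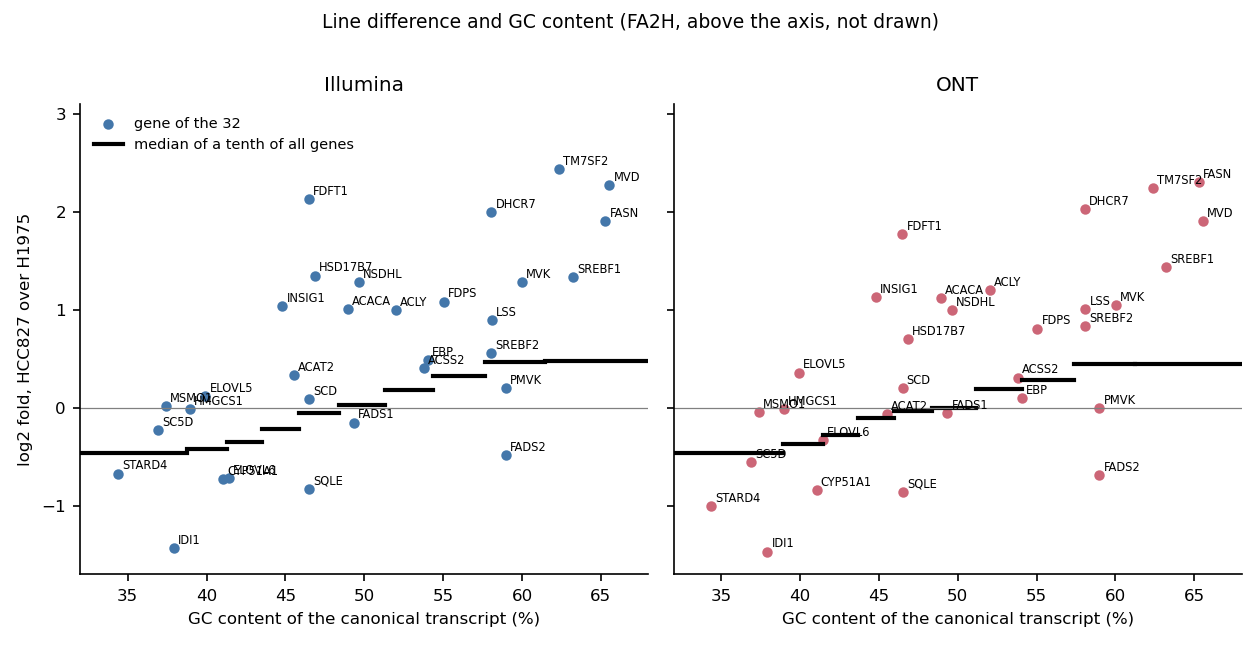
Log2 fold of HCC827 over H1975 against GC content of the canonical transcript (%) for 31 of the 32 genes (points; FA2H lies above the axis) on Illumina and ONT. Black bars are the median log2 fold of each of 10 bins of all genes by GC content, and they climb from -0.46 to 0.48 on Illumina and from -0.47 to 0.44 on ONT. Genes far above the bars include the GC-rich MVD, TM7SF2, DHCR7 and FASN as well as FDFT1, HSD17B7 and INSIG1. FADS2, SQLE and IDI1 lie far below.

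Differences between the HCC827 samples also ran in part with GC content. HCC827 replicate 2 was the highest of its line on both Illumina and ONT for 8 genes (MVD, LSS, SREBF1, SREBF2, ACLY, ACSS2, ACACA and FASN), whose median GC content was 58.1%. It was the lowest on both for 8 others (IDI1, CYP51A1, MSMO1, HSD17B7, EBP, SC5D, ELOVL5 and ELOVL6), with a median of 40.5% (36.9 to 54.0%). SREBF1 was 1.08 and 1.70 times the mean of the other replicates, SREBF2 1.24 and 1.76 times, and SC5D 0.77 and 0.65 times, on Illumina and ONT. Over all genes in the GC-richest bin, HCC827 replicates 1, 2 and 3 lay 0.26, 0.53 and 0.45 log2 units above the H1975 mean on Illumina and 0.16, 0.42 and 0.27 on ONT. In the GC-poorest bin they stood at -0.31, -0.49 and -0.39 on Illumina and -0.26, -0.31 and -0.32 on ONT. Replicate 2 was thus the most extreme in that bin on Illumina only. The depth, spike-in share and GC gradient of this sample move with these values, and their part was not tested. Without it the number of genes of the network called was 20 higher and 6 lower on Illumina, and 17 higher and 7 lower on ONT. Of all genes tested, 9424 of 26554 were then called higher and 9712 lower on Illumina. On ONT 9235 of 28066 were called higher and 9420 lower. Calls over all genes were thus 19136 on Illumina and 18655 on ONT, against 19061 and 17163 with this sample.

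**Figure D5:**
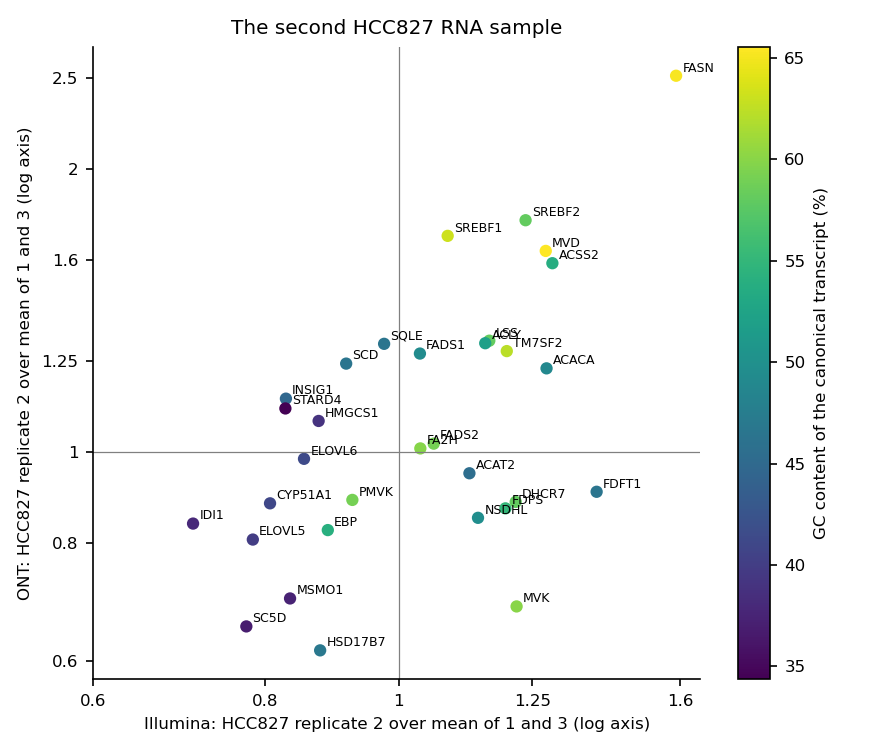
Level of each of the 32 genes in HCC827 replicate 2 divided by the mean of HCC827 replicates 1 and 3, Illumina on the x axis and ONT on the y axis (log axes), coloured by GC content of the canonical transcript (%). FASN stands at 1.59 and 2.51, the upper right holds GC-rich genes such as MVD and SREBF2, and the lower left holds GC-poor genes such as SC5D and IDI1.

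Genes around the network, on lists of the wider pathway, differed in both directions. In SREBP processing and sterol sensing, 1 of 10 was higher in HCC827 and 4 lower on Illumina (median log2 fold -0.09), and 1 and 2 on ONT (median -0.10). MBTPS2, the site-2 protease that frees SREBP, had log2 -1.14 ± 0.09 and -0.99 ± 0.16, and RNF139, a ubiquitin ligase of the endoplasmic reticulum, -1.10 ± 0.12 and -0.89 ± 0.19. The counts of 1 higher gene are not the same gene: SCAP was the one on Illumina and ERLIN2 the one on ONT. ERLIN2, named after its values were seen, was called lower on Illumina (log2 -0.44 ± 0.09, edgeR adjusted p = 8.0e-04) and higher on ONT (0.62 ± 0.14, adjusted p = 0.0033), and the difference between platforms was itself called (adjusted p = 8.6e-05). Of 16 other mevalonate, sterol and isoprenoid genes, 8 were higher and 5 lower on Illumina (median 0.17), and 5 and 5 on ONT (median 0.06). EBPL had 1.85 ± 0.10 and 0.89 ± 0.24, and AACS, which makes acetoacetyl-CoA, 1.29 ± 0.10 and 1.31 ± 0.19.

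Sterol uptake, trafficking and storage had 8 of 14 tested genes higher and 3 lower on Illumina (median 0.68), and 8 and 4 on ONT (median 0.64). STARD3, a carrier of lysosomal sterol, had log2 1.4 ± 0.11 and 1.49 ± 0.17, and LIPA, the lysosomal lipase, -1.77 ± 0.10 and -2.09 ± 0.15. LXR, the nuclear receptor that answers high sterol, was represented by 6 tested genes on Illumina and 7 on ONT: 4 higher and 2 lower (median 0.40), and 2 and 2 (median -0.16). NR1H2, one form of the receptor, had 2.71 ± 0.13 and 2.57 ± 0.15. NAPSA, an epithelial marker higher in HCC827 on both platforms, lies within the span of NR1H2 on the opposite strand. Exon overlap was not checked for the genes of these lists, so the counts of NR1H2 are uncertain. The sterol efflux pump ABCA1 had -2.21 ± 0.12 and -1.95 ± 0.17, and APOE, a lipid carrier, -2.62 ± 0.14 and -2.72 ± 0.24.

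Other fatty acid synthesis, elongation and activation genes were mostly lower in HCC827 on Illumina, with 7 of 23 higher and 15 lower (median -0.47), and 5 and 8 of 22 on ONT (median -0.16). HACD4 and HACD1, dehydratases of elongation, had -3.90 ± 0.18 and -2.5 ± 0.13 on Illumina, and -4.55 ± 0.22 and -2.99 ± 0.15 on ONT. ELOVL3, an elongase, had -2.63 ± 0.37 and -2.11 ± 0.28. Glycerolipid synthesis had 4 of 8 genes higher and 1 lower on Illumina (median 0.36), and 2 and 1 on ONT (median 0.28): DGAT1, which makes triacylglycerol, had 1.80 ± 0.15 and 1.61 ± 0.21, AGPAT2 1.21 ± 0.10 and 1.04 ± 0.21, and GPAM, the first acyltransferase, -1.4 ± 0.12 and -1.03 ± 0.21. Fatty acid oxidation, the opposite process, had 7 of 16 higher and 6 lower on Illumina (median 0.08), and 6 and 5 on ONT (median 0.14), led by ACADS (2.14 ± 0.14 and 2.09 ± 0.20), ACADVL (1.61 ± 0.11 and 1.58 ± 0.17) and CPT2 (1.4 ± 0.10 and 1.16 ± 0.14). These counts lie on both sides of the background shares given above for all genes.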

How the data were processed

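The 32 genes and the other lists were chosen with earlier results of these data known. The authors deposited counts, whole numbers of reads per gene in 1 file per library, not normalized. The submitters' processing notes name GRCh38, featureCounts and minimap2 2.17, without saying which step each served; a strand setting was not found in those notes. PacBio counts came from clustered reads, per the file headers. Genes were matched by Ensembl identifier; coordinates, exon lengths and GC content were read from GENCODE release 44; 60357 of 60617 identifiers matched it on Illumina, and 58207 of 58676 for long reads. Spike-in RNAs stayed out.

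Each platform was fitted alone with edgeR 4.0.16 in R 4.3.3 (TMM, filterByExpr, robust quasi-likelihood) on 6 libraries, and platform interactions on 12. SE is the log2 fold over the root of F. Values in every library are given for the 10 genes with the largest Illumina fold called alike on Illumina and ONT, and for SREBF1, SREBF2, INSIG1, SQLE, HMGCS1, FASN and SCD; listed genes are from the 3 largest of a list called alike, and some of them are not reported here. Alternatives were other scalings, no filter, DESeq2 1.42.0, limma-voom 3.58.1, a replicate block, each library left out and a GC offset. The fits were tested on simulated data. Intervals and floors cover counting error only. Promoter sequence is RefSeq's; ACAT2, FDFT1, SQLE and FASN had no entry.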

Additional observations from a re-analysis of the deposited data

How the results depend on the processing

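Of the alternative log2 folds of single genes, 418 on Illumina and 415 on ONT kept direction and call, 10 and 21 lost the call, 11 and 8 gained one and 9 and 4 changed sign; a change of sign called in neither fit counts as kept. The cause of the changes was not tested. With total count scaling, 11 of the 32 genes were called lower on Illumina and 13 on ONT; ACAT2 (-0.022), MSMO1 (-0.33) and SCD (-0.26) on Illumina and EBP (-0.46) on ONT changed sign, and the ONT against Illumina difference was called for 3358 genes, 4 of the 32 among them lower. With the GC offset the sign changed on Illumina for HMGCS1 (0.41), PMVK (-0.21) and SC5D (0.27), and on ONT for HMGCS1 (0.40) and ELOVL6 (0.019).

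The replicate numbers did not pair the lines, since same-numbered samples did not deviate together (r from -0.54 to 0.24 over the 3 platforms); on PacBio, differently numbered samples did (r up to 0.60). With the number as a replicate block, 18793 genes were called on Illumina, 16320 on ONT and 50 on PacBio; 19 and 16 of the 32 genes were higher and 6 and 6 lower on Illumina and ONT. The block with the GC offset gave HMGCS1 0.41, PMVK -0.22 and SC5D 0.26 on Illumina, and ELOVL6 0.018 with 4 genes lower on ONT. With the RNA sample as the block, the difference between platforms was called for 3109 genes between ONT and Illumina, 1 of the 32 higher, and for 32 genes between PacBio and Illumina.

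PacBio called 206 genes, and 971 without a filter, 89 with limma-voom and 63 with the close pairs summed; 1 of the 32 was higher without a filter and 1 with DESeq2. Leaving out each library gave 24 to 336 genes, and 0 to 2 of the 32 higher. The 336 came without HCC827 replicate 3, when only the close pair stood for that line. The ONT against Illumina difference had 1 of the 32 higher without a filter and 1 with limma-voom; leaving out each library gave 1300 to 3782 genes, 0 to 1 of the 32 higher and 0 to 1 lower. PacBio against Illumina called 4 genes, and 9 without a filter, 209 with DESeq2 and 3955 with limma-voom (2 of the 32 higher and 3 lower, FA2H at -4.19); leaving out each library gave 0 to 14. With the longest transcript as length, SCD was 410 TPM in H1975 and 289 in HCC827, and FASN 77.4 TPM in H1975. PacBio depth left 26 of the 32 genes untested.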
